A study of Mus musculus with 31 samples.

Results

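The nuclear genes of the mitochondrial respiratory chain were followed in mouse forebrain tissue in which the number of X chromosomes, the presence of a Y chromosome and the type of gonad had been varied. Genes entered by their symbol, and no difference between groups was used. They were the genes of the submitters' processed table whose symbol starts with Nduf, Sdh, Uqcr or Atp5, or with Cox followed by a digit from 4 to 8, each represented by its brightest probe. This gave 81 genes of 8974 named ones. By these prefixes 32 were assigned to complex I, 3 to complex II, 6 to complex III, 15 to complex IV and 15 to complex V, while 9 were assembly factors (Ndufaf and Sdhaf genes) and 1 was annotated as a pseudogene, Ndufs5-ps. Ndufa4, counted with complex I by its symbol, is now regarded as a subunit associated with complex IV. All 81 passed the filter on dim probes, and each was detected on 31 of 31 arrays, so that none was kept through a single group. No gene of the mitochondrial genome was named among the probes tested, and the mitochondrially encoded subunits are not analysed here.

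The arrays came from dissected tissue of the bed nucleus of the stria terminalis and the preoptic area (BNST/POA) of MF1 mice aged 152 days, from a mouse model of Klinefelter syndrome called the Sex Chromosome Trisomy model. The 4 groups were 8 XX females with the code B_XX, 7 XX males with the code B_XXSry, 8 XXY males with the code B_XXY.Sry and 8 XY males with the code B_XY.Sry. In this model the testis-determining gene Sry is a transgene, separate from the Y chromosome, and all 3 groups of males carry it, with or without a Y, and the XX females do not. The descriptions place 20 arrays in batch 1 and 11 in batch 2, with 5 arrays of each group in batch 1 and 3 of each in batch 2, except for 2 XX males. The labels do not say what a batch is.

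Between 12939 and 14397 of 25697 probes were detected per array. Array XX male 6 stood apart from its label. Its description names batch 1, but on component 1 of all features it lay at 27.55, among the arrays of batch 2, which began at 20.37. The other arrays of batch 1 ended at -10.82. Every other array numbered 6 is described as batch 2. Its median intensity of 228.83 lay among theirs (211.43 to 258.64), and above those of the other batch 1 arrays (141.29 to 200.87). The main fits keep the label as described. The counts of members and the means of complexes between batches are therefore also given with this array left out or counted in batch 2. So are the differences of XX males for Ndufb10, Uqcrc1, Atp5g1 and Atp5g2. Other values keep the label as described, unless stated. Xist, the RNA that coats an inactive X chromosome, was detected on 8 of 8 XX female, 7 of 7 XX male, 8 of 8 XXY male and 0 of 8 XY male arrays, as the sex chromosome labels state. 5 of 6 listed markers of the BNST and preoptic area (Esr1, Gad1, Slc32a1, Kiss1 and Avp) were measured, and so were 4 of 4 markers of thalamic neurons, which the dissection borders on.

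The respiratory chain sits in the inner mitochondrial membrane. Complex I takes electrons from NADH and complex II takes them from succinate; both pass them through ubiquinone to complex III, from there by cytochrome c to complex IV, and so to oxygen. Complexes I, III and IV pump protons out of the matrix, and complex V, the ATP synthase, lets them back in and makes ATP. Neurons depend on it to restore ion gradients after firing. Most subunits are encoded in the nucleus, a few of them on the X chromosome, and the nuclear respiratory factors NRF1 and NRF2 (GABPA, of the ETS family), YY1 and the estrogen-related receptors are known activators of these genes.

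RefSeq promoters of 300 bases (250 before and 50 after the annotated start, build GRCm38.p6) were found for 70 of the 81 genes, and both strands were searched for one form of each activator's motif. GCGCANGCG (NRF1) was present in 20 of the 70, or 28.6%, against 15.4% of 7306 promoters of named array genes and 7.03% of all 27025 promoters. CCGGAAG (ETS family) was present in 19, or 27.1%, against 19.4% and 9.93%. AAGATGGCG (YY1) was present in 7, or 10%, against 3.57% and 1.64%, and AAGGTCA (estrogen-related receptors) in 6, or 8.57%, against 4.07% and 5.38%. At least 1 of these 4 sequences stood in 39 of the 70, or 55.7%, against 35.9% of the array genes' promoters. By complex, the NRF1 sequence was found in 6 of 30 promoters of complex I, 1 of 2 of complex II, 2 of 4 of complex III, 1 of 12 of complex IV, 6 of 13 of complex V and 4 of 9 of the assembly factors. These are matches of letters, not measured sites.

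Shown here are the promoters of the 3 X-linked members, whose gene dosage differs between the groups and whose windows hold none of these 4 sequences, then of Sdhd, the member of complex II with the widest spread, and of an isoform pair of complex IV, the widely expressed Cox8a and the heart and muscle type Cox8b. Sequences run 5′ to 3′ along the gene, and capitals mark the motif matches, which read as their reverse complement where the match is on the other strand. In Sdhd they are, in order, matches to the NRF1, ETS and estrogen-related receptor sequences, and in Cox8a both are ETS matches.
Ndufa1, chrX:37191189-37191488, minus strand: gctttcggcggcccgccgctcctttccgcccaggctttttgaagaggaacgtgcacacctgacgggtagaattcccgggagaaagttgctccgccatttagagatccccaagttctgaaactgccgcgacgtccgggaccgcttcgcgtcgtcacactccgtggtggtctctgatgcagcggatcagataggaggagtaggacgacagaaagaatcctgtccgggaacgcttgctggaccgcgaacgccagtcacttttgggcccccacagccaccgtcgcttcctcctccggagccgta
Ndufb11, chrX:20617570-20617869, minus strand: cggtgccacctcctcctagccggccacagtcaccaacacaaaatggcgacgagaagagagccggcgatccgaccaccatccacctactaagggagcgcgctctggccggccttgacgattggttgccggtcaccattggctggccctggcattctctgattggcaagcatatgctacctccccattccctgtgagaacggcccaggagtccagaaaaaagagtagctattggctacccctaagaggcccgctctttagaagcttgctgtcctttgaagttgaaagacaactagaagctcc
Cox7b, chrX:106015450-106015749, plus strand: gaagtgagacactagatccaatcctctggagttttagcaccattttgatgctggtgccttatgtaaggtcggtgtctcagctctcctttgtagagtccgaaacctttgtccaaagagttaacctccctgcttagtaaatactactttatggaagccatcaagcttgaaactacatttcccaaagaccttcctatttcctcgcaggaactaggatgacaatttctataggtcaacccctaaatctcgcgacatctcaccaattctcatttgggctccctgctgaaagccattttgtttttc
Sdhd, chr9:50603800-50604099, minus strand: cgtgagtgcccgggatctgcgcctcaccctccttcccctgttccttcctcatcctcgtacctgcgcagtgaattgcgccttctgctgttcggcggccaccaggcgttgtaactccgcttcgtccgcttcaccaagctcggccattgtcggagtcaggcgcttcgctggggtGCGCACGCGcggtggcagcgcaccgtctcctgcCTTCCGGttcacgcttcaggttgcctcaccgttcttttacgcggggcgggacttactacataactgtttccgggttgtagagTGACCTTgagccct
Cox8a, chr19:7217567-7217866, minus strand: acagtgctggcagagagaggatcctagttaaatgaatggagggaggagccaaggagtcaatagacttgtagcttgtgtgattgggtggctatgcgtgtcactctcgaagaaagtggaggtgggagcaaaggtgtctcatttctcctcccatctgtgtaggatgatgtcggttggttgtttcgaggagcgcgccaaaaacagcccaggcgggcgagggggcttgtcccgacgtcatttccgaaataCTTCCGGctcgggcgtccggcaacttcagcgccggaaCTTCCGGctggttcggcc
Cox8b, chr7:140900397-140900696, minus strand: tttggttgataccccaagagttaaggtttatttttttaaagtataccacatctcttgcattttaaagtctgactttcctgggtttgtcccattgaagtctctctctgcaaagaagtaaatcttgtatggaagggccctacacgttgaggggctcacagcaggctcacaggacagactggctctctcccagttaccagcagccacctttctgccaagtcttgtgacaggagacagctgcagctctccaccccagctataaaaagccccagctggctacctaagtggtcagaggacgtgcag

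The series asks about gene expression in a brain region tied to partner preference in males with an additional X chromosome. XXY males were first set against XY males, which differ by an additional X chromosome. Of the 81 genes, 0 passed an adjusted p of 0.05 in limma's moderated test with adjustment over all 11713 features, where 0.0512% of all features passed. At an unadjusted p under 0.05 the count was also 0 of 81, against 2.75% of all features. The log2 differences of the members ran from -0.40 (Cox6a2) to 0.13 (Ndufb10), with a median of -0.0012 beside 0.0029 for all features, and 40 were above 0 and 41 below. The typical 95% interval of a member reached 0.126 to either side of its estimate. In 77 of the 81 the whole interval lay within 0.5 of zero on the log2 scale.

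The other 5 contrasts between groups gave 0 members past the adjusted threshold as well. The share of all features called was 0.0683% for XX females against XY males, 0.0598% for XX males against XY males, 0.0256% for XXY males against XX males, 0.0512% for XXY males against XX females and 0.0256% for XX females against XX males. The lowest adjusted p of any member in the 6 contrasts was 0.693. At an unadjusted p under 0.05 there were 0 members in 4 of these 5 contrasts, against 4.23%, 5.63%, 6.55% and 5.36% of all features in the order given. In the last, XX females against XX males, there were 2, against 6.73% of all features, and both encode the membrane ring of complex V (Atp5g1 and Atp5g2). Medians of the members were 0.0021, 0.0046, -0.019, 0.0033 and -0.013 in the same order, beside -0.00066, 0.0084, -0.0049, -0.00032 and -0.0062 for all features. With array XX male 6 counted in batch 2, the 3 medians that involve XX males were -0.016 against XY males, -0.0030 for XXY males against XX males and 0.015 for XX females against XX males, so that the first and the last changed sign. The intervals of 74 to 77 members lay within 0.5 of zero in each. Contrasts that share a group share its arrays and are not independent.

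The F test over the 4 groups called 0 members (0.0854% of all features, lowest adjusted p of a member 0.942), and the test of a group-by-batch interaction called 0 (0% of all features, lowest unadjusted p of a member 0.0585, for Cox7a1). Within batch 1 the median difference of the members between XXY and XY males was 0.017 and within batch 2 it was -0.031. As a check of what the design could show, Eif2s3x (ILMN_2649129), an X-linked gene of a translation initiation factor that escapes X inactivation, differed by 0.64 between XXY and XY males (adjusted p = 1.06e-06).

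**Figure D1:**
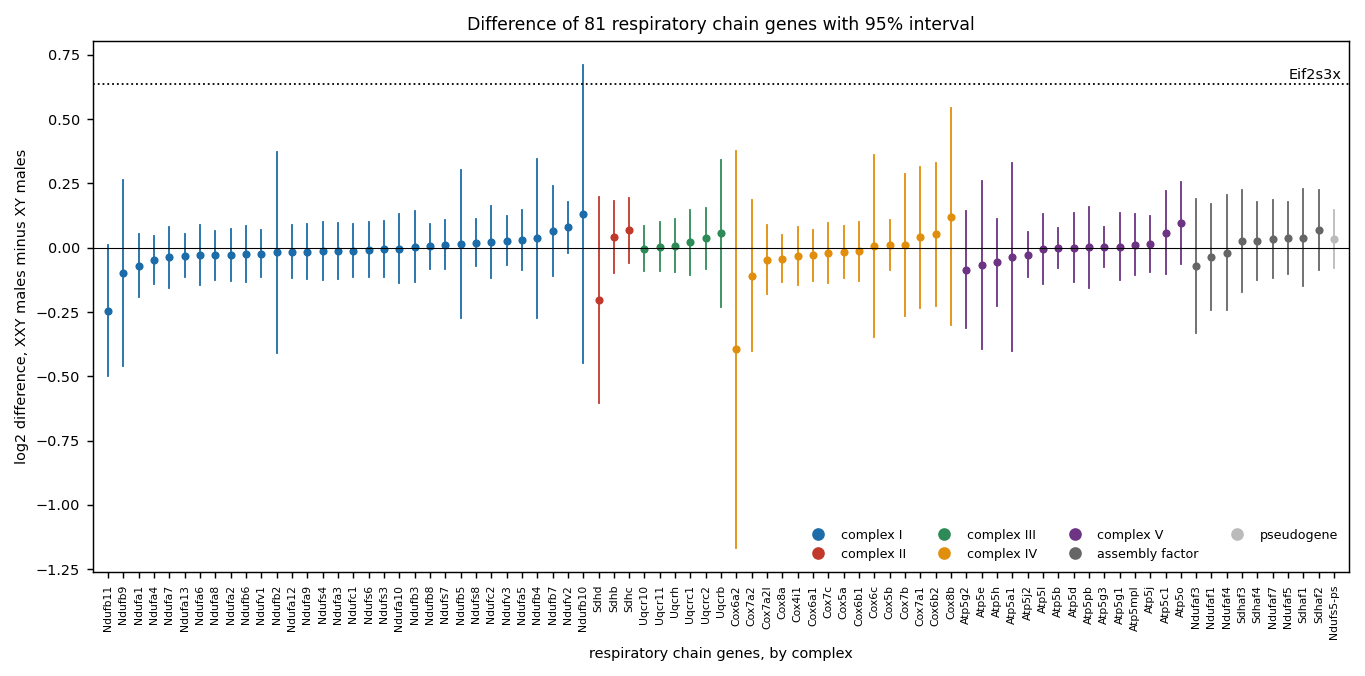
Log2 difference between XXY and XY males for the 81 respiratory chain genes, grouped by complex; points are limma estimates and bars their 95% intervals, and the dotted line marks Eif2s3x at 0.64. The points scatter around 0, and the interval of every member includes 0.

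Among the 32 genes of complex I, the entry point for NADH electrons, 12 differences between XXY and XY males were above 0 and 20 below, with a median of -0.012. Ndufv2, a subunit of the NADH-oxidising head that carries an iron-sulfur cluster, had the smallest p of the positive differences. After removal of the batch difference its log2 signal had a median of 13.60 in XXY males (13.51 to 13.73) and of 13.53 in XY males (13.41 to 13.63), and the groups overlapped. The difference was 0.080 (SE 0.0485, adjusted p = 1). Ndufb10, an accessory subunit of the membrane arm, had the widest spread of the complex, with an SD of 0.588 over arrays. Its signal on the same scale ran from 9.64 to 10.99 in XX males with a median of 10.30, and from 8.83 to 10.51 in XY males with a median of 10.004. XX males differed from XY males by 0.52 (95% interval -0.08 to 1.12, adjusted p = 0.891), by 0.77 within batch 1 and by -0.018 within batch 2. Without array XX male 6, the highest XX male, the difference was 0.40, with 0.62 within batch 1, and with it counted in batch 2 it was 0.42. Ndufa6, an accessory subunit of the matrix arm, differed by -0.095 between XX and XY males, and Ndufa9, which lies near the ubiquinone site, by 0.086 between XX females and XX males, neither past the threshold. At the other end Ndufa13, a subunit also known as GRIM-19, varied least in the complex, with an SD of 0.0538.

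Complex II, succinate dehydrogenase, links the tricarboxylic acid cycle to the chain and is encoded wholly in the nucleus. Of its genes Sdhb, the iron-sulfur subunit, and Sdhc and Sdhd, the membrane anchors, were measured. Sdhd (ILMN_1239143) differed by -0.20 between XXY and XY males (SE 0.196, adjusted p = 1), by -0.21 within batch 1 and -0.20 within batch 2. Its batch-removed log2 signal ran from 7.22 to 8.16 with a median of 7.89 in XXY males, and from 7.26 to 8.48 with a median of 7.97 in XY males. The groups overlapped, and the highest values were those of XY males. Sdhb differed by 0.041 and Sdhc by 0.068, neither past the threshold. Sdhb had another probe, and before batch removal the signals of both correlated at r = 0.818 over the 31 arrays.

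In complex III, which passes electrons from ubiquinol to cytochrome c, Uqcrc1, a core subunit facing the matrix, had the smallest p in the contrast of XX males with XY males. Its batch-removed log2 signal ran from 12.75 to 13.26 in XX males (median 12.85) and from 12.66 to 12.89 in XY males (median 12.81). The difference was 0.12 (SE 0.0637, adjusted p = 0.891), 0.14 within batch 1 and 0.056 within batch 2. The highest XX male was XX male 6. Without that array the difference was 0.060 and 0.061 within batch 1, and with it counted in batch 2 it was 0.090. Uqcrb, the ubiquinone-binding subunit, differed by 0.056 between XXY and XY males, and the complex as a whole had a median difference of 0.015 with 5 of 6 above 0.

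Complex IV, cytochrome c oxidase, is where isoforms of heart and skeletal muscle replace widely expressed ones, and the array measured both kinds. The widely expressed Cox4i1, Cox6a1, Cox6b1, Cox7a2 and Cox8a differed between XXY and XY males by -0.031, -0.030, -0.014, -0.11 and -0.042, and Cox7a2l, which helps join complexes III and IV, by -0.046. The muscle types Cox6a2, Cox7a1 and Cox8b differed by -0.40, 0.040 and 0.12, and the testis type Cox6b2 by 0.053. None of these passed the threshold. The SDs over arrays of the latter 4 were 0.763, 0.266, 0.414 and 0.277, against 0.0910 for Cox4i1, 0.0759 for Cox6a1, 0.0919 for Cox6b1, 0.281 for Cox7a2 and 0.0647 for Cox8a. Those 4 and Cox7a2 had dimmer probes, with batch 1 medians of 8.69, 8.65, 6.09, 6.15 and 9.14. Cox4i1, Cox6a1, Cox6b1 and Cox8a had 14.50, 14.27, 14.23 and 14.35. Among all members the median SD was 0.277 under a mean log2 signal of 10 and 0.0795 over 13. The part of brightness in these SDs was not tested. The batch-removed log2 signal of Cox8b ran from 5.57 to 7.31 in XX females (median 6.24) and from 5.63 to 6.57 in XY males (median 6.07), a difference of 0.26 that was the largest positive one of XX females against XY males among the 81.

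Complex V gave the 2 members with an unadjusted p under 0.05 in any contrast between groups. Atp5g1 and Atp5g2 are separate genes for the same mature protein, subunit c, whose ring in the membrane turns as protons pass. The batch-removed log2 signal of Atp5g2 ran from 10.56 to 11.44 with a median of 10.94 in XX females, from 11.09 to 11.67 with a median of 11.24 in XX males, from 10.89 to 11.39 with a median of 11.14 in XXY males and from 10.82 to 11.33 with a median of 11.24 in XY males. XX females held the lowest values, but their range included that of XXY and XY males. XX females differed from XX males by -0.32 (SE 0.116, unadjusted p = 0.0105, adjusted p = 0.693), by -0.20 within batch 1 and -0.53 within batch 2. Without array XX male 6 it was -0.25 (unadjusted p = 0.0353) and, with the array counted in batch 2, -0.24 (unadjusted p = 0.0326). Atp5g1 had medians of 13.50 in XX females and 13.66 in XX males and differed by -0.16 (SE 0.0656, unadjusted p = 0.0185, adjusted p = 0.703), and by -0.14 without array XX male 6 or with it counted in batch 2. Atp5g3, the third gene for the same protein, differed by 0.062 between XX females and XX males. Atp5o, a stator subunit, differed by 0.098 between XXY and XY males. Atp5pb, subunit b of the stator, differed by 0.11 between XXY and XX males. Neither passed the threshold. For Atp5pb array XX male 6 was the lowest XX male, at 11.83 with the next at 12.34. Atp5b, the catalytic beta subunit, varied least of all 81 genes, with an SD of 0.0428.

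The 9 assembly factors are not part of the finished complexes: Ndufaf proteins build complex I and Sdhaf proteins complex II. Between XXY and XY males their median difference was 0.027, with 6 above 0 and 3 below, and between XX females and XY males it was 0.065, with 8 above 0 and 1 below. None passed the threshold in any contrast. Ndufaf4 had the smallest p of the positive differences between XX females and XX males, 0.22 (SE 0.113, adjusted p = 0.724). Its lowest XX male was array XX male 6, at a batch-removed 9.27 with the next at 9.87. Ndufaf3 differed by -0.18 between XXY males and XX females. Sdhaf2, which inserts the flavin of succinate dehydrogenase, differed by 0.15 between XX females and XY males.

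Among the members 3 lie on the X chromosome. Ndufa1 (ILMN_1251370, chrX:37187588-37191238 in GRCm38.p6) encodes a small subunit of the membrane arm of complex I. Its log2 signal before batch removal ran from 13.29 to 13.64 with a median of 13.50 in XX females, from 13.30 to 13.48 with a median of 13.43 in XX males, from 13.24 to 13.53 with a median of 13.42 in XXY males and from 13.30 to 13.64 with a median of 13.47 in XY males. All 4 ranges overlapped. Against XY males the differences were 0.020 (95% interval -0.10 to 0.14) in XX females, -0.069 (-0.20 to 0.057) in XX males and -0.070 (-0.19 to 0.052) in XXY males.

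Ndufb11 (ILMN_2747885, chrX:20615326-20617619) encodes another subunit of the membrane arm. Its log2 signal had medians of 7.04 in XX females (6.49 to 7.47), 7.03 in XX males (6.57 to 7.29), 6.86 in XXY males (6.36 to 7.21) and 7.09 in XY males (6.67 to 7.64). Against XY males the differences were -0.11 (95% interval -0.37 to 0.14), -0.093 (-0.36 to 0.17) and, in XXY males, -0.24 (-0.50 to 0.011, unadjusted p = 0.0603, adjusted p = 1). The last was -0.030 within batch 1 and -0.60 within batch 2. It was -0.13 without array XXY male 7, the lowest of all, and -0.12 without background correction.

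Cox7b (ILMN_2671689, chrX:106015700-106022450) encodes a small subunit of complex IV. Its log2 signal had medians of 7.58 in XX females (7.34 to 8.50), 7.44 in XX males (7.11 to 8.15), 7.76 in XXY males (7.21 to 8.36) and 7.81 in XY males (7.40 to 8.15). Against XY males the differences were -0.038 (95% interval -0.31 to 0.24), -0.22 (-0.50 to 0.069) and 0.011 (-0.27 to 0.29), and the sign of the last changed when any of 8 arrays was left out. On the same arrays Eif2s3x had medians of 11.35 in XX females, 11.29 in XX males and 11.36 in XXY males, with a lowest value of 11.17 over these groups, and of 10.75 in XY males, with a highest value of 11.02. For Eif2s3x the XY males therefore did not overlap the other groups before batch removal, while for the 3 respiratory chain genes they did. These ranges include the batch difference, unlike the fitted differences and intervals. In batch 1 and batch 2 the medians were 6.79 and 7.26 for Ndufb11 and 7.495 and 8.04 for Cox7b. The probes of Ndufb11 and Cox7b were also dimmer than that of Eif2s3x. Ranges after batch removal are not given here for these genes.

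**Figure D2:**
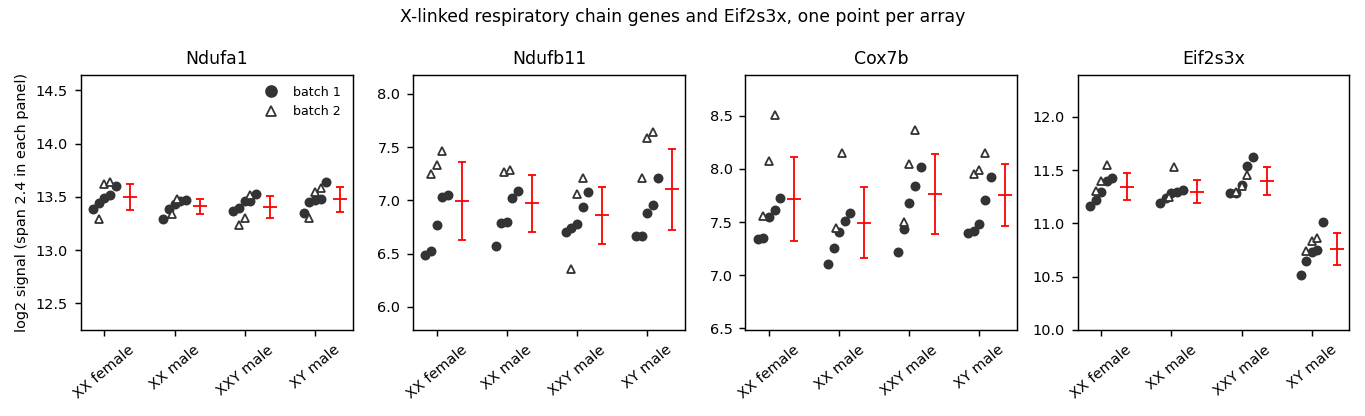
Log2 signal of the X-linked members Ndufa1, Ndufb11 and Cox7b and of Eif2s3x on each array by group, before removal of the batch difference; filled circles are batch 1, open triangles batch 2, and red bars show the group mean and SD. All panels have the same span of log2 units, and XY males stand apart for Eif2s3x, with medians of 10.75 against 11.29 to 11.36, and not for the other genes.

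The widest spread of any member was that of Cox6a2, the heart and muscle type of a subunit that regulates cytochrome c oxidase. It was singled out after its values were seen. Its batch-removed log2 signal ran from 7.51 to 10.22 with a median of 8.84 in XX females, from 7.94 to 9.75 with a median of 8.71 in XX males, from 7.56 to 9.51 with a median of 8.28 in XXY males and from 7.65 to 10.28 with a median of 8.54 in XY males. High and low arrays occurred in every group. XXY males differed from XY males by -0.40 (SE 0.378), from XX females by -0.42 and from XX males by -0.32, none past the threshold.

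Cox6a2 moved with the markers of thalamic neurons. The mean log2 deviation of Prkcd, Tcf7l2, Rora and Gbx2, a kinase and 3 transcription factors of thalamic neurons, correlated with it at r = 0.891 (rho = 0.901) over 31 arrays, at 0.898 within batch 1 and 0.886 within batch 2. Without the 2 arrays farthest from the median marker level, r was 0.881 over 29 arrays. The single markers gave 0.843 (Prkcd), 0.843 (Tcf7l2), 0.774 (Rora) and 0.798 (Gbx2), and the next member after Cox6a2 was Ndufa1 at 0.381. These are descriptions over arrays that share a dissection. Correlations of Cox6a2 with the other marker lists were not computed, so the link is not shown to be particular to thalamic markers. The marker mean ran from -1.12 to 0.90 in XX females, from -1.10 to 0.81 in XX males, from -1.195 to 0.487 in XXY males and from -1.08 to 1.23 in XY males. The 4 markers differed between XXY and XY males by -0.75, -0.51, -0.23 and -0.10 in the order given first, beside -0.40 for Cox6a2. The part of thalamic tissue in the values of Cox6a2 was not tested, and more cells of a type cannot be told apart from more RNA per cell in these bulk samples.

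**Figure D3:**
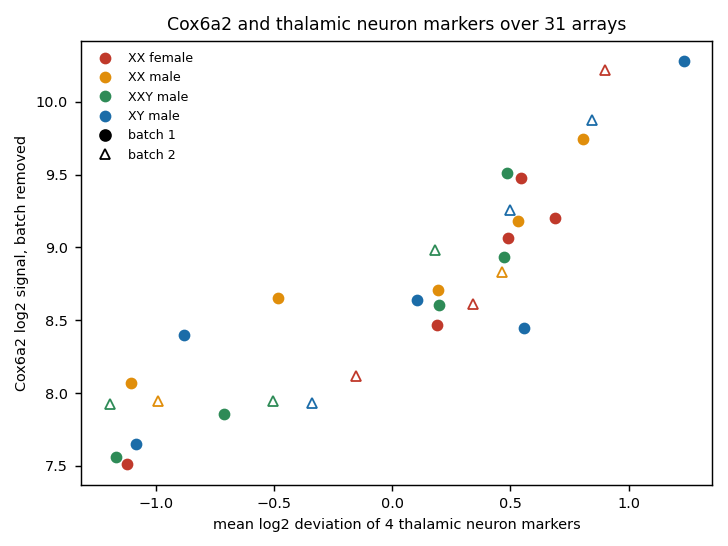
Batch-removed log2 signal of Cox6a2 against the mean log2 deviation of 4 thalamic neuron markers (Prkcd, Tcf7l2, Rora and Gbx2), one point per array, coloured by group, with filled circles for batch 1 and open triangles for batch 2. The points of all 4 groups follow one rising band (r = 0.891, 31 arrays), and each group spans low and high values.

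Averaged over the 81 genes, the deviation of an array from the mean of all arrays, after removal of the batch difference, ran from -0.11 (XXY male 7) to 0.098 (XX female 8), with an SD of 0.0551. It had medians of 0.0093 in XX females, -0.0038 in XX males, -0.015 in XXY males and 0.012 in XY males, and the groups overlapped. Complex II varied most between arrays (SD 0.167), complex IV had an SD of 0.0929, and complexes I, III and V had SDs of 0.0567, 0.0544 and 0.0594. The mean of complex II rests on only 3 genes, of which Sdhd has a dim probe (median 7.42 in batch 1 and 8.45 in batch 2). Its SD without Sdhd was not computed. The mean of complex IV correlated with the thalamic marker mean at r = 0.663, the value farthest from 0 among the marker means. It was -0.428 with endothelium (-0.148 within batch 1 and -0.715 within batch 2). With the preoptic area and BNST it was -0.377 (-0.615 and 0.241). Without Cox6a2 the SD of complex IV was 0.0631 and its correlation with the thalamic marker mean 0.278, an alternative chosen after seeing the data.

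Most pairs of complexes varied together over the 31 arrays. The mean of complex I correlated at r = 0.729 with that of complex II, 0.661 with III, 0.516 with IV and 0.823 with V, within batches at 0.317 to 0.770 in batch 1 and 0.744 to 0.878 in batch 2. Complex IV followed the others less closely. Its mean correlated at 0.324 with that of complex II (0.168 within batch 1 and 0.605 within batch 2), at 0.262 with III (-0.051 and 0.598) and at 0.343 with V (0.025 and 0.735). Cox6a2, the member of widest spread, is part of that mean. The correlations of complex IV with the other complexes were not computed without it, so the part of this gene in them was not tested. With group and batch fitted out, pairs of single genes correlated at 0.0708 on average, against 0.000988 over all pairs of features. The average was 0.0746 among 70 mitochondrial and 0.163 among 60 cytosolic ribosomal protein genes, and 0.0896 among 33 proteasome subunits. The mean of all 81 genes correlated at r = 0.747 with the mean of the cytosolic ribosomal protein genes (0.798 within batch 1 and 0.803 within batch 2). With the mitochondrial ribosomal protein genes r was 0.509 (0.118 within batch 1 and 0.838 within batch 2). With the number of probes detected it was -0.354, and with the marker means of neurons, astrocytes, oligodendrocytes and microglia it was -0.250, -0.016, -0.197 and -0.218. Of all the marker means, that of endothelium gave the correlation farthest from 0, -0.376, which was 0.115 within batch 1 and -0.726 within batch 2, and that of thalamic neurons gave 0.283 (0.015 and 0.644). All these means share arrays and normalization, so the values are descriptions.

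**Figure D4:**
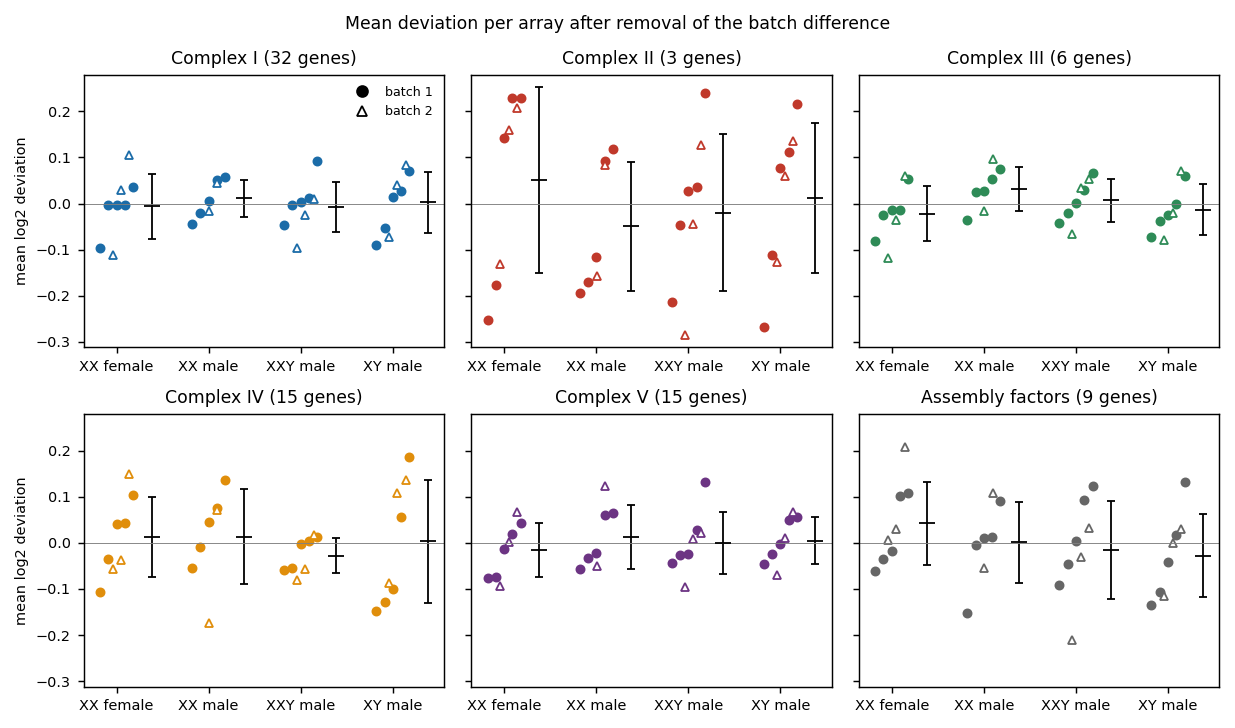
Mean log2 deviation per array for the genes of complexes I to V and the assembly factors, by group, after removal of the batch difference; filled circles are batch 1, open triangles batch 2, and black bars show the group mean and SD. The 4 groups overlap in every panel, and complex II, a mean of only 3 genes, has the widest scatter, from -0.29 to 0.24.

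In contrast to the groups, the batches differed in much of the chain. 45 of the 81 genes passed an adjusted p of 0.05 between batch 2 and batch 1, or 55.6%, where 44.7% of all features passed. 42 were higher in batch 2, against 23.2% of all features higher, and 3 were lower, against 21.5% lower. The median difference was 0.15, beside 0.014 for all features. Without array XX male 6 the count was 47, with 5 lower, and with it counted in batch 2 it was 46, with 41 higher and 5 lower. In the submitters' processed values, fitted in the same way, 0 members differed between batches and the median was 0.043. The batch differences that follow are therefore those of the scanner values as normalized here. The batches hold all 4 groups, and the fit with batch as a term was used for every contrast above.

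By complex, 18 genes were higher and 2 lower of 32 in complex I, 2 higher of 3 in complex II, 2 higher of 6 in complex III, 7 higher of 15 in complex IV, 10 higher and 1 lower of 15 in complex V and 2 higher of 9 among the assembly factors. The mean of the genes differed by 0.21 in complex I, 0.44 in II, 0.15 in III, 0.20 in IV and 0.26 in V. Among the 3 genes of complex II the median difference was 0.22, with Sdhd the highest at 1.03. Without array XX male 6 these counts were 17 and 2, 2 and 0, 2 and 1, 7 and 0, 10 and 1, and 3 and 1, and the means of complexes I to V differed by 0.21, 0.45, 0.16, 0.20 and 0.26. With it counted in batch 2 the counts were 16 and 2, 2 and 0, 2 and 1, 8 and 0, 9 and 1, and 3 and 1, and the means differed by 0.20, 0.43, 0.15, 0.19 and 0.25. Ndufb9, an accessory subunit of the membrane arm of complex I, had the largest difference. Its log2 signal ran from 8.48 to 10.08 with a median of 9.06 in batch 1 and from 9.87 to 10.73 with a median of 10.41 in batch 2, and the highest array of batch 1 was XX male 6. It was 1.24 higher in batch 2 (SE 0.133, adjusted p = 1.55e-08), and 1.29 higher without that array, when the batches did not overlap.

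Sdhd was 1.03 higher (adjusted p = 1.92e-06), with medians of 7.42 in batch 1 and 8.45 in batch 2. Uqcrb was 0.78 higher (adjusted p = 6.91e-07), Cox7a2 0.73 higher (adjusted p = 2.96e-06), and Atp5e, the epsilon subunit of the ATP synthase, 0.81 higher (adjusted p = 3.08e-06). Atp5o was 0.47 higher (adjusted p = 2.08e-07). Uqcr10 and Uqcr11, small subunits of complex III, and Cox5a, a nuclear subunit of complex IV, differed by -0.041, -0.086 and -0.0043 and did not pass the threshold with the labels as described. With array XX male 6 left out or counted in batch 2, 1 gene of complex III passed as lower, and its name is not given here. Cox6a1 differed less than Atp5o, by 0.28, but its batches did not overlap, at 14.14 to 14.33 and 14.40 to 14.70, unless array XX male 6 was counted in batch 2. With the labels as described, 3 members had batches that did not overlap, Cox6a1, Cox8a and Ndufa12. The share over all features was not computed. Ndufa10, an accessory subunit of complex I, was lower, with a difference of -0.33 (adjusted p = 3.22e-06), with medians of 13.11 in batch 1 and 12.73 in batch 2. Atp5c1, the gamma subunit that forms the shaft of the ATP synthase, differed by -0.15 (adjusted p = 0.0433) and Ndufv1, the subunit that binds NADH, by -0.13 (adjusted p = 0.00259). The 10 genes given here and above as past the threshold (Ndufb9, Sdhd, Uqcrb, Cox7a2, Atp5e, Atp5o, Cox6a1, Ndufa10, Atp5c1 and Ndufv1) passed it in the same direction without array XX male 6 and with it counted in batch 2.

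The size of the batch difference moved with the brightness of the probe. Its median was 0.357 in 19 members of mean log2 signal under 10, 0.224 in 24 members from 10 to 13, and 0.0635 in 38 members over 13, and the median SD over arrays after batch removal fell along the same bins from 0.277 to 0.126 and 0.0795. The probes of the members were bright, with a median mean log2 signal of 12.92 against 8.25 for all features. Their median SD over arrays was 0.115, against 0.228. Signals of different probes are not compared as amounts of transcript. The part of brightness in the difference between the members and all features was not tested.

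**Figure D5:**
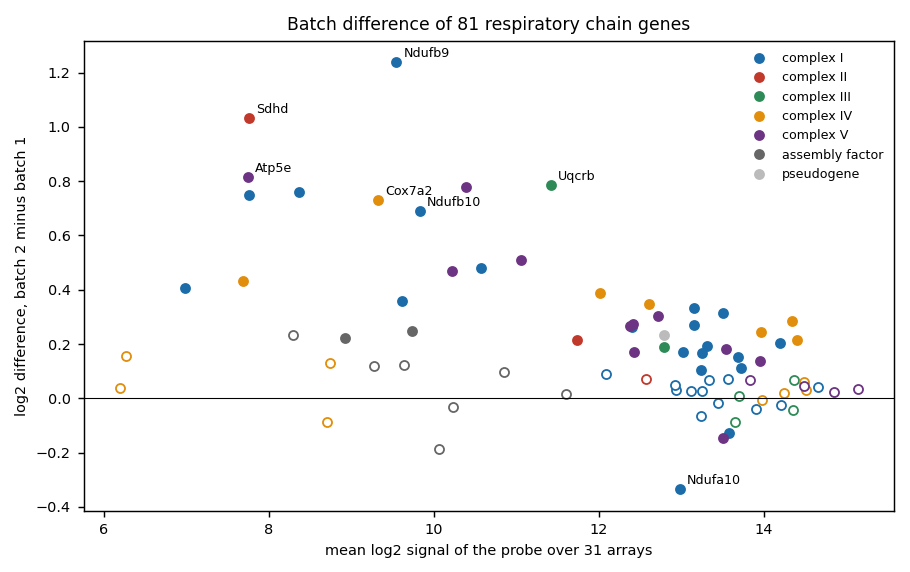
Log2 difference between batch 2 and batch 1 of the 81 genes against the mean log2 signal of the probe, coloured by complex; filled points passed an adjusted p of 0.05 in limma and open points did not. Most filled points lie above 0, the largest being Ndufb9 at 1.24, and the differences narrow toward bright probes.

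Over the 47 members that differed between batches when array XX male 6 was left out, that array lay nearer the mean of batch 2 in 25. The other 19 arrays of batch 1 did so in 1 to 14 genes and the 11 arrays of batch 2 in 28 to 46. The 47 genes and the batch means were taken from these other arrays, and XX male 6 entered neither. The separation of the other arrays is therefore partly fixed in advance. In the mean over all 81 genes before batch removal, however, XX male 6 lay at -0.034, within the range of batch 1 (-0.15 to 0.0058) and below the lowest array of batch 2 (0.025).

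Of the members 12 had several probes. Before batch removal, a further probe correlated with the main one over the 31 arrays at r = 0.818 for Sdhb, 0.794 for Ndufa5, 0.789 for Cox6a1 and 0.728 for Atp5j. These values and those that follow include any batch difference that the probes share. For the other 8 genes r was 0.475 for Ndufc1, 0.44 for Cox6b1, 0.388 for Uqcr10, 0.27 for Ndufa8, 0.174 for Ndufb6, 0.119 to 0.184 for the 3 further probes of Ndufs4, 0.088 for Ndufaf5, and -0.21 and -0.148 for Ndufv3. With each such gene represented by its next probe the count between groups was again 0 in the 6 contrasts.

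Genes that serve the chain without being members were described from lists drawn up for this purpose. In the 6 contrasts between groups 0 passed the adjusted threshold of 3 genes of cytochrome c and its loading, 14 assembly factors of complex IV, 4 of complex III, 3 assembly or inhibitor genes of the ATP synthase, 12 enzymes of the tricarboxylic acid cycle and 9 regulators. The lowest adjusted p was 0.472, for Idh3g, an X-linked subunit of isocitrate dehydrogenase that differed by -0.18 between XX females and XX males. The cycle enzymes had a median difference of 0.027 between XXY and XY males and of 0.099 between XX and XY males, with 10 of 12 above 0 in each. At an unadjusted p under 0.05 there were 0 and 3 of the 12, against 2.75% and 5.63% of all features.

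Between batches 4 cycle enzymes were higher and 0 lower, 7 complex IV assembly factors higher and 1 lower, and 2 of 3 genes of cytochrome c higher. Of the 9 regulators 2 were higher and 3 lower. Over all features 23.2% were higher and 21.5% lower. Ppargc1a and Ppargc1b, coactivators that drive mitochondrial biogenesis, were lower in batch 2, with differences of -1.64 (adjusted p = 8.45e-12) and -0.86 (adjusted p = 1.05e-07), and Esrra, an estrogen-related receptor they act through, was 0.30 higher (adjusted p = 0.00069). Nrf1 differed by 0.10 and Tfam, which maintains mitochondrial DNA, by 0.079, neither past the threshold. Gabpa was 0.26 higher (adjusted p = 0.0251).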

How the data were processed

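RNA of 31 BNST/POA samples was hybridised to single-colour Illumina arrays. Per the file headers, the deposited scanner table holds bead intensity without a recorded normalization, detection p-values, bead standard errors (a signal used in no test) and bead numbers for 25697 probes. The authors also deposited log2 values of 12980 probes. That scale was read from their correlation of 0.997 with values normalized here; of the steps behind them, the submitters' processing notes name limma and the labels give no others.

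Here, neqc of limma 3.58.1 (R 4.3.3, offset 16) corrected the background from the detection p-values and quantile-normalized the intensities. A probe was kept if its detection p-value was below 0.05 on 7 or more arrays, which left 14989, and each named gene kept its brightest probe. The resulting 11713 features were fitted by limma with terms for group and batch. Moderated tests were two-sided, with Benjamini-Hochberg adjustment over all features and a threshold of 0.05. Error bars of differences are 95% intervals or standard errors (SE) from that model. For a complex, each gene was centred on its mean over all arrays and the centred values were averaged. Batch-removed values lack the fitted batch term. Correlations of complex, marker and gene family means, and of members with the thalamic markers, used them. Those between probes of a gene used normalized values with the batch difference left in. Those between pairs of genes and between pairs of arrays used residuals after group and batch were fitted. The procedure was tested on simulated data.

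The genes named came from a rule: the X-linked members, the 2 of smallest p in each direction of each contrast, tissue isoforms of complex IV, the 2 of smallest p in each direction between batches per complex, and the 3 widest and 3 narrowest in spread; the few others are examples. The members and lists were chosen with earlier results of these data known. The labels call the arrays biological replicates and name no animals, and p-values therefore reflect the spread between these samples, which may be partly technical. Alternatives covered the authors' values, cyclic loess, background correction, the filter on dim probes, other probes, the batch term, the batch of array XX male 6, a replicate block and each array left out. Gene names came from the platform annotation, and chromosomes and promoters from RefSeq tables of GRCm38.p6. The number of arrays limits the precision.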

Additional observations from a re-analysis of the deposited data

Results flagged for a closer look

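Among 192 sets of values (the 4 groups for each of 41 named genes and for the means of the complexes, after removal of the batch difference), 13 held an array whose gap to its nearest neighbour was wide for the range of its group. Chance gives such a gap in about 1 of 20 sets. 5 of the 13 were array XX male 6, whose description and overall pattern name different batches. Its log2 signal was 11.83 for Atp5pb, a stator subunit of the ATP synthase, and 9.27 for Ndufaf4, the lowest XX male in both. It was 7.19 for Cox6b2, 10.7 for Ndufb9 and 13.26 for Uqcrc1, the highest XX male in all 3.

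Ndufb11 was 6.16 on array XXY male 7, the lowest XXY male, with the next at 6.86. Atp5e was highest among XXY males on array 3, at 8.38, and Atp5g1 on array 1, at 13.76. Among XY males, array 2 was lowest for Atp5g2, at 10.82, and highest for Uqcr10, at 14.47, and array 3 was lowest for Cox5a, at 13.82. Cox8b was highest among XX males on array 2, at 6.91. Ndufv2 was lowest among XX females on array 8, at 13.46.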

How the results depend on the processing

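The count of 0 members called between groups held in the 6 contrasts and the F test under every alternative run and without each array in turn, and the interaction count of 0 held wherever batch was a term. Of 300 values under 12 alternatives other than leaving out an array, 290 stayed within the limits set (a median or complex mean within 1 SD between arrays, a count within 1.5 times, a gene's difference on the same side of 0 and of the threshold). The other 10 concern the batches. In the submitters' values 0 members differed between batches, 0 higher and 0 lower, with a median difference of 0.043 and mean differences of 0.055 in complex I, 0.101 in II, 0.043 in III, 0.050 in IV and 0.069 in V; the cause was not tested. The count lower in batch 2 was 5 with array XX male 6 counted in batch 2. Leaving out an array gave 43 to 47 members called between batches and 2 to 5 lower, with 5 without XX male 6, XX male 8 or XY male 3. It reversed the difference of Cox7b between XXY and XY males 8 times (-0.050 to 0.092) and between XX females and XY males 2 times (-0.12 to 0.027), and that of Ndufa1 between XX females and XY males 3 times (-0.0059 to 0.050). Those limits let small medians change sign. Medians of the members between groups lay between -0.019 and 0.019 under these alternatives and between -0.028 and 0.017 with an array left out. For XX males against XY males and for XX females against XX males, 7 of 12 settings had the sign of the main fit. The main fit is itself counted among those 12. Ndufb11 between XXY and XY males was -0.12 without background correction, against -0.24. Replicate numbers are shared between groups. The 42 same-numbered pairs of arrays with the same batch label correlated at -0.241 to 0.308 (median 0.0449, 14 over 0.1). The pairs of XX male 6 with the other arrays numbered 6 are not among them, since their descriptions name different batches. Other pairs of the same batch had a median of -0.0785, with 28 of 153 over 0.1. 7 of 31 arrays correlated best with their own number. Arrays numbered 2 detected the fewest probes (12939 to 13235), and arrays numbered 6 had the highest median intensities (211.43 to 258.64). Arrays of one number may therefore share a technical step. The labels do not state this, it was not tested, and the main fit has no term for the number. In the mean over the 81 genes the 4 arrays numbered 7 were all low, from -0.11 to -0.061, a description made after seeing the data. With the replicate block in place of batch 0 members were called in each contrast, and the median between XXY and XY males was -0.0012. Probe brightness limits the dim members most.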
